A study of Mus musculus with 2 samples.

Results

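The sequences described here are single small RNA reads that were abundant in one of 2 deposited tables and nearly missing from the other. They were selected on the read counts themselves. A sequence without undetermined bases was a member when it had at least 100 reads in one table and, after scaling both tables to reads per 1000000 reads of the table (RPM), under 10% of that level in the other. The table named KO had 59280 sequences with at least 100 reads, and 0 of them (0%) were members. The table named het had 68112 such sequences, and 272 of them (0.399%) were members, out of 72338 sequences that reached 100 reads in either table. All members therefore lay on 1 side, low in the KO-named table and high in the het-named table, and these counts describe the choice and test nothing.

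The study sequenced small RNAs of testes from mice mutant for the pseudogene Stambp-ps1, to look at piRNAs. It has 1 Stambp-ps1-/- sample and, set against it, 1 Stambp-ps1+/- sample, each a testis library from C57BL/6 background mice taken 23 days after birth (23 dpp). The heterozygotes also carry 1 mutant allele, no Stambp-ps1+/+ testis was analysed here, and the labels do not say how the allele was made or how many animals gave RNA. Whole testis was used, so fewer cells of a type and less RNA per cell cannot be told apart. Both tables are filed with the Stambp-ps1-/- sample, so they are called by the words in their names and are assigned to no genotype. There were 54384974 reads in the KO-named table and 62773871 reads in the het-named table, of 18 to 32 nt. With 1 table of each name there is no replicate, no test between groups was possible, and every interval given is a 95% interval for counting error only, since PCR copies cannot be told from separate molecules.

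PIWI-interacting RNAs (piRNAs) are small RNAs of the germ line. They are cut from long single-stranded precursors, mostly begin with U, and guide PIWI proteins to transposon and messenger RNAs. In mouse testis the bulk of them is made in pachytene spermatocytes from a limited set of long noncoding precursors and from some 3′ untranslated regions. Reads shorter than piRNAs and miRNAs in such libraries come in large part from pieces of abundant structural RNAs, above all ribosomal RNA. A read sequence that occurs in one library and not in another can stand for a source that differs, for another cut end of the same source, or for another base in it, so each of these was looked at.

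The members fell into 2 kinds. The first kind was 237 short sequences of 18 to 21 nt, which held 92.7% of the het-named reads of members. The second was 35 sequences of 22 to 32 nt, of which 33 were of piRNA size (24 to 32 nt). The sequences that matter for the rest of the text are printed here, 5′ to 3′ with T for U. They were all matched without mismatch to GENCODE M21 transcripts on GRCm38, except where a substitution is named. In the first set, from AA474408, a gene of the annotation's unsettled type TEC at chr7:110059841-110059861 on the minus strand, capitals mark the 15 bases that all 4 overlapping members share.
AA474408 18 nt, form 1: TGAACAGCCTCTGGCatg
AA474408 18 nt, form 2: ggTGAACAGCCTCTGGCa
AA474408 18 nt, form 3: gTGAACAGCCTCTGGCat
AA474408 18 nt, form 4: aggTGAACAGCCTCTGGC

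In the second set, from an untranslated exon of Lars2 (the mitochondrial leucyl-tRNA synthetase gene) at chr9:123461986-123462005 on the plus strand, capitals mark 18 bases shared by 3 members that end at the same base.
Lars2 18 nt: GTTCATAGCGACGTCGCT
Lars2 19 nt: cGTTCATAGCGACGTCGCT
Lars2 20 nt: gcGTTCATAGCGACGTCGCT

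A second Lars2 stretch, at chr9:123461839-123461859, gave 3 members whose 16 shared bases are in capitals.
Lars2 18 nt, upstream form: gcAGAAGGGCAAAAGCTC
Lars2 19 nt, middle form: cAGAAGGGCAAAAGCTCgc
Lars2 19 nt, downstream form: AGAAGGGCAAAAGCTCgct

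Whether reads matched to CT010467.1, an entry annotated as rRNA, are sense or antisense to ribosomal RNA itself was not tested. A pair of members at chr17:39846889-39846907 on the plus strand, antisense to this entry as annotated, shared the 18 bases in capitals.
CT010467.1 19 nt: tACAGGACTCTTTCGAGGC
CT010467.1 18 nt: ACAGGACTCTTTCGAGGC

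The longer members are shown by their sources. Capitals mark the first 18 bases, which were used to sum all reads that begin alike. The 2 Gm18009 members lie antisense to this pseudogene at chr6:128447668-128447698 and chr6:128447788-128447818 on the plus strand. The Wdfy3 member lies in an untranslated exon at chr5:101835654-101835683 on the minus strand, and the Gm14244 member in an exon of that noncoding gene at chr2:127692460-127692490 on the plus strand.
Gm18009 31 nt, first: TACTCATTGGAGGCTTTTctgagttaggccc
Gm18009 31 nt, second: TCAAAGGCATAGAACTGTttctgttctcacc
Wdfy3 30 nt: CACTAACTCAATGAACCAtctaaggtctgt
Gm14244 31 nt: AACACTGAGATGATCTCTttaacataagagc

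In the last set capitals mark base 20, counted from 1 at the 5′ end, at which a sequence with another base was the more abundant one in the KO-named table. The Gm49794 pair lies in an exon of this long intergenic noncoding RNA at chr17:27356652-27356681 on the plus strand, and the U2 pair matches 7 annotated copies of U2 small nuclear RNA, among them Rnu2-10 at chr11:101658327-101658353 on the plus strand.
Gm49794 30 nt, member: taggtactgtcgtggcaggTggccacgtgc
Gm49794 30 nt, T20G: taggtactgtcgtggcaggGggccacgtgc
U2 27 nt, member: attaaatggatttttggaaGtaggagt
U2 27 nt, G20C: attaaatggatttttggaaCtaggagt

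Over all 272 members there were 7781 reads in the KO-named table, or 143 RPM, against 123818 reads in the het-named table, or 1972 RPM. The median member had 13 KO-named and 203 het-named reads, and a KO-named to het-named RPM ratio of 0.0727. Only 6 members had 0 KO-named reads, which a floor of 3 reads puts at up to 0.0552 RPM. The rule makes any such sequence a member, so 6 is also their number among all 68112. The member with most reads was a 20-nt sequence with 834 KO-named and 10126 het-named reads, which matched no annotated transcript. Nearly all members were therefore present in both tables, at a lower level in the KO-named one. Just inside the limit lay a 19-nt sequence with 17 KO-named and 197 het-named reads (9.96%) and an 18-nt one with 9 and 104 reads (9.99%). Just outside lay a 19-nt sequence with 35 and 403 reads (10.02%) and a 30-nt one with 49 and 564 reads (10.03%), and none of these 4 matched the annotation.

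Members were mostly short. Sequences of 18 to 21 nt made up 87.1% of the members (interval 82.6 to 90.9), against 9.65% of all sequences with at least 100 het-named reads. At 18 nt, 128 of 1433 sequences were members (8.93%), at 19 nt 78 of 1713 (4.55%), at 20 nt 22 of 1618 (1.36%) and at 21 nt 9 of 1810 (0.497%). From 22 to 32 nt the share stayed between 0 and 0.108% at every length. The whole distribution moved with length in the same way. The median KO-named to het-named ratio over all sequences was 0.283 at 18 nt, 0.357 at 19 nt, 0.458 at 21 nt, 0.701 at 24 nt and 0.997 at 25 nt, and it lay between 1.03 and 1.12 from 26 to 32 nt. Short members are thus the low end of a length class whose median was already low in the KO-named table, and the part that library size selection or RNA quality had in this was not tested.

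The first base of the members was seldom U. C began 98 members, G 67, A 54 and U 53 (19.5%), whereas U began 72.2% of all sequences with at least 100 het-named reads. Within 18 to 21 nt, U began 29 of 237 members (12.2%, interval 8.35 to 17.1), against 25.9% of all 6574 sequences of that size. Within 22 to 32 nt, U began 24 of 35 members (68.6%, interval 50.7 to 83.1), against 77.1% of 61538 sequences. The longer members thus kept the first base that is usual for piRNAs, and their share lay within its counting interval of the share over all sequences. At the 3′ end, C was the last base of 50.2% of the short members, against 38.6% of all short sequences.

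Base composition also differed. The median short member was 66.7% G and C, against 55% over all sequences of 18 to 21 nt. Among those sequences, members numbered 0 of 662 below 40% GC, 7 of 1423 from 40 to 50%, 51 of 1993 from 50 to 60%, 81 of 1307 from 60 to 70% and 98 of 1189 at 70% or more, where they made up 8.24%. The median ratio over all of them was 0.467 in the lowest of these classes, 0.386 in the middle one and 0.263 in the highest. Neither GC content nor length entered the choice of members, but both are features of the sequence that PCR and size selection can act on, and that part was not tested. In the 22 to 32 nt class the median GC was 48.4% for members and 46.2% for all sequences.

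Few members came from annotated transcripts. An exact match on either strand was found for 40 of 272 members (14.7%), close to the 16.9% of all sequences. For short members it was 30 of 237 (12.7%), against 24.7% of all short sequences, and for longer ones 10 of 35 (28.6%), against 16.03%. With up to 2 mismatches 73.4% of short members matched, but so did 66.6% of all short sequences, since an 18-nt read finds near matches easily. None of the other 25 long members matched with up to 2 mismatches. Only annotated transcripts were searched, not a genome, so members from unannotated regions, from the full ribosomal RNA precursor or from tRNA genes could not be placed and are described without sequence.

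Of the short members that matched, most lay in 3 annotated sources whose sequences, as background, resemble or are annotated as ribosomal RNA. Lars2 held 16 members of 18 to 20 nt, AA474408 held 5 and CT010467.1 held 5, of 337, 164 and 274 sequences of 18 to 21 nt of these genes with at least 100 het-named reads. These are 4.75%, 3.05% and 1.82%, against 3.61% (237 of 6574) over all sequences of that size, so Lars2 lay slightly above that share and the other 2 sources below it. One 18-nt sequence matched Lars2, AA474408 and Gm15564 alike and is counted under each. All Lars2 members lay between chr9:123461814-123462183. The other sequences of these genes had a median ratio below 1 as well, of 0.443 for Lars2, 0.479 for AA474408 and 0.407 for CT010467.1. Most sequences of these sources were thus lower in the KO-named table, and the members were the lowest of them.

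Among the 3 AA474408 members with most reads, form 1 printed above had 81 KO-named and 1063 het-named reads, a ratio of 0.0880 (interval 0.0693 to 0.110). The member shared with Lars2 and Gm15564 had 45 and 974 reads, a ratio of 0.0533. Form 2 had 37 KO-named and 494 het-named reads. Forms 3 and 4, shifted by single bases around the same core, had 3 and 6 KO-named reads against 135 and 112 het-named reads. All 4 forms are low because members were chosen so. The 15-base core occurred in 37 further sequences with at least 100 het-named reads that were not members, 13 of them of 18 to 21 nt, with ratios of 0.163 to 0.590 and a median of 0.401.

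In Lars2, the 18-nt sequence beginning GTTCATAG had 40 KO-named and 830 het-named reads, a ratio of 0.0556. The 19-nt form with 1 more base at the 5′ end had 28 and 379 reads, and the 20-nt form had 12 and 201 reads. In the second stretch, the upstream, middle and downstream forms had 43, 24 and 31 KO-named reads against 706, 386 and 503 het-named reads. A further 18-nt Lars2 member had 60 KO-named and 705 het-named reads, and one that begins with C at chr9:123462166-123462183 had 24 and 504 reads. Each of these forms lay between 0.0550 and 0.0982 on the ratio scale.

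The CT010467.1 members were lower in abundance. The pair printed above had 11 and 8 KO-named reads, against 303 and 151 het-named reads. Another, at chr17:39846424-39846441, had 24 KO-named and 283 het-named reads. The remaining pair also match the noncoding genes Gm42418 and AY036118, with 5 and 2 KO-named reads against 148 and 104 het-named reads. They run antisense to CT010467.1 and AY036118 but sense to Gm42418. All 5 were low in the KO-named table, as the rule requires, and the last lay near the minimum of 100 reads.

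Matched short members outside these sources were few. Gm25732, an entry annotated as miRNA at chr4:139338217-139338235, gave 2 members with 39 and 27 KO-named against 454 and 412 het-named reads. They were 2 of its 9 sequences with at least 100 het-named reads. Of its 7 such sequences of 18 to 21 nt they made up 28.6%, against 3.61% over all sequences of that size. Both begin with the same 18 bases, so they are not independent. Another pair matched Gm23935, Gm24187, Gm24245 and Gm24270, entries annotated as miRNA that cannot be told apart here, with 43 and 13 KO-named against 526 and 156 het-named reads. One 19-nt member of Rn7sk, the 7SK RNA that holds the elongation factor P-TEFb inactive, had 17 KO-named and 211 het-named reads and matched 9 further annotated copies. Gm25732 and Rn7sk, like Gm18009, Wdfy3 and Gm14244, lie outside the rule for singly named members and were chosen after their values were seen. None of the members (0 of 272) was a mature miRNA of RefSeq.

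Other reads from the same starts as the short members were looked at next. All reads of any length that begin with the same 18 bases were summed. With the member's own reads included, the median ratio of these sums was 0.320, and in 10 of 237 the sum was also under 10%. The members' own low level is fixed by the rule, so it was also left out. The 217 different starts of short members then gave 267767 KO-named and 711317 het-named reads of other sequences, a ratio of 0.435 (interval 0.433 to 0.436). Of these starts, 204 had at least 100 het-named reads of other sequences, and 0 of the 204 was under 10%, with a median ratio of 0.421. Other sequences with at least 100 het-named reads lie at or above 10%, since any below it would be members. Leaving the members out thus raises these ratios, and the count of 0 follows in part from the rule. The other reads from these starts were lower in the KO-named table as well. With all reads of these starts, the ratio went with length. At 18 nt they had 6027 KO-named and 75765 het-named reads, a ratio of 0.0918. At 20 nt the ratio was 0.229, at 22 nt 0.433, at 25 nt 0.507 and at 32 nt 0.480. Members of 18 to 21 nt are part of these sums, so the values up to 21 nt are set in part by the choice. Reads of 22 nt or more from these starts hold no member. Over all reads of the tables the ratio was 0.361 at 18 nt, 0.666 at 20 nt, 1.05 at 22 nt and 1.04 at 32 nt. So reads of 22 nt or more from these starts had lower ratios than reads of their size in general. Starts of short sequences in general were low too. Over all 6574 sequences of 18 to 21 nt, the median ratio of sums over the first 18 bases was 0.431, own reads included. The like value for the short members, own reads included, is the 0.320 given above, which the choice lowers. The 0.421 leaves the members out, so it is a value of another kind. Sums over the same last 18 bases gave a median ratio of 0.384 for short members, against 0.435 over all short sequences. The 211 ends of the short members had ratios of 0.0986 at 18 nt, 0.400 at 22 nt and 0.516 at 32 nt.

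Single starts are given as examples. For the upstream Lars2 form, reads with its first 18 bases numbered 43 KO-named and 706 het-named at 18 nt, 32 and 187 at 20 nt (ratio 0.198), and 53 and 148 at 22 nt (ratio 0.413). For AA474408 form 1, reads of 25 nt numbered 113 KO-named and 219 het-named (ratio 0.596, interval 0.470 to 0.751), against 81 and 1063 at 18 nt. For the Lars2 sequence beginning GTTCATAG, reads of 19 nt numbered 57 KO-named and 566 het-named (ratio 0.116), those of 20 nt 19 and 88 (ratio 0.249) and those of 23 nt 25 and 50 (ratio 0.577). The 25-nt read of AA474408 was thus more abundant in the KO-named table than the 18-nt one, and in the het-named table it was the less abundant.

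Members overlapped each other, so they are not independent. Sequences that share 12 or more bases in register formed 131 groups, of which 74 held 1 member and 13 held at least 5. The 35 longer members fell into only 15 groups. Any share of members given above therefore counts a smaller number of source sites.

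For most of the longer members, other reads from the same start were low as well. In 32 of 35 the sum of all reads with the same first 18 bases, own reads included, was under 10%, and the median ratio of these sums was 0.0637. Without the members' own reads, 13 of their 21 different starts had at least 100 het-named reads of other sequences. Of these, 11 were under 10%, with a median ratio over the 13 of 0.0702, against 0 of 204 starts of short members. The rule was applied to every sequence, so other sequences with at least 100 het-named reads lie at or above 10%. Only those with fewer reads were free to lie on either side. The choice therefore shapes these counts, and they are a description. The 3 members whose sums were not under 10% were both Gm49794 members and the U2 member.

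The longer members with a place came from 5 sources. Gm18009 is the RefSeq pseudogene Stambp-ps1, the gene named in the genotypes, so its reads also bear on the table names. The first printed member had 0 KO-named and 324 het-named reads and the other had 3 and 163 reads. Both begin with U, are 31 nt long and run antisense to the pseudogene. They were the only 2 Gm18009 sequences that reached 100 het-named reads. Antisense reads of 24 to 32 nt over the rest of the pseudogene, away from the members' starts, numbered 20 KO-named and 2135 het-named (ratio 0.0108, interval 0.00659 to 0.0167). Each of the 3 other starts with at least 100 het-named reads was also under 10%. Here antisense reads of 24 to 32 nt were low at the members' starts and over the rest of the pseudogene. The members were the most abundant of these sequences, and sense reads are not given.

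Wdfy3, a gene for a large adaptor protein of selective autophagy, gave 3 members of 30, 31 and 32 nt from 1 start, all beginning with C. They had 2, 1 and 2 KO-named reads, against 205, 169 and 110 het-named reads. All exact reads of 24 to 32 nt with this start numbered 5 KO-named and 580 het-named, a ratio of 0.00995 (interval 0.00322 to 0.0234). The 3 members held 5 and 484 of these reads, so the choice sets most of this ratio. The remaining sense reads of Wdfy3 numbered 6782 and 8139, a ratio of 0.962 (interval 0.931 to 0.993). Of its 11 other starts with at least 100 het-named reads, 0 was under 10%, but the start with members is left out of these. Among all 61538 sequences of 22 to 32 nt with that minimum, 35 (0.0569%) had a start sum under 10%. A count of 0 is near that general share, so nothing is read from it. In the KO-named table the chosen start of Wdfy3 was nearly missing, while the rest of the gene's reads were near parity. No sequence 1 substitution away from the 30-nt member was found in the KO-named table.

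Gm14244, annotated as an antisense noncoding gene, showed the same contrast at 1 start. Its 31-nt member had 24 KO-named and 337 het-named reads, and its 32-nt member had 2 and 149 reads. Both begin with A. Exact reads with this start numbered 34 KO-named and 614 het-named (ratio 0.0639, interval 0.0439 to 0.0903). The 2 members held 26 and 486 of these reads, so the choice sets most of this ratio. The rest of the gene gave 46345 and 48688 reads, a ratio of 1.10. Of 94 other starts, 0 was under 10%, which is again near the general share given for Wdfy3. The member start held a small part of the gene's reads in either table.

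Gm49794, a noncoding precursor, gave 737697 KO-named and 717191 het-named sense reads of 24 to 32 nt. Of its 949 sequences with at least 100 het-named reads, 2 were members (0.211%), against 0.399% over all sequences of any length. The 30-nt member had 28 KO-named and 604 het-named reads, a ratio of 0.0535 (interval 0.0353 to 0.0781). The 31-nt member had 3 and 583 reads, a ratio of 0.00594 (interval 0.00122 to 0.0174). The remaining sense reads of the gene numbered 737156 and 715497, a ratio of 1.19. Of 623 other starts, 0 was under 10%, which is also near the general share given for Wdfy3. Exact reads of 24 to 32 nt with the members' start numbered 541 KO-named and 1694 het-named, a ratio of 0.369 (interval 0.334 to 0.406), members included. All reads with the same first 18 bases, exact or not, numbered 2173 and 2942, a ratio of 0.853 (interval 0.806 to 0.901). The 2 members held 31 KO-named and 1187 het-named reads of both sums, so the choice of members sets much of the ratio of the exact reads. The sum with inexact reads was nearer to parity.

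The other forms differed in length and at base 20. The 29-nt form with T at base 20, the annotated base, had 316 KO-named and 275 het-named reads. With T20G, the 30-nt form had 306 KO-named and 125 het-named reads, a ratio of 2.83 (interval 2.29 to 3.51), and the 31-nt form had 16 and 165 reads, a ratio of 0.112. The 29-nt form with T20G had 69 and 44 reads. Over all reads with the same first 19 bases, T stood at base 20 in 46.7% of the KO-named reads, against 76.2% of the het-named ones, and G in 52.3% against 22.7%. The T reads, 1008 KO-named against 2238 het-named, include the 2 members with their 31 and 1187 reads. The choice of members therefore sets part of the difference between these shares. The G reads, which hold no member, numbered 1128 against 667, a ratio of 1.95 (interval 1.77 to 2.15). Both bases were abundant in both tables. Of these exact forms, the 31-nt ones were low in the KO-named table with either base. The 30-nt ones were low with T and high with G. At 30 and 31 nt the T forms are the members themselves, so the rule required their low level. The 32-nt forms had 6 and 78 reads with T (ratio 0.0888) and 29 and 19 with G (ratio 1.76). All reads with the same first 19 bases, other forms included, numbered 723 and 887 at 30 nt (ratio 0.941). At 31 nt they numbered 239 and 973 (ratio 0.284). Whether the G reads come from this locus or from another copy was not tested.

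The U2 member, of 27 nt, had 5 KO-named and 116 het-named reads, and 43 KO-named reads had the G20C form printed above, against 161 het-named reads. U2 is the small nuclear RNA that pairs with the branch point in splicing. Reads from this stretch were split by their first base. Those that begin with the member's A numbered 24 KO-named and 144 het-named with G at base 20 of the member (ratio 0.192), and 59 and 180 with C (ratio 0.378). The sum with G holds the member's own 5 and 116 reads, so the choice sets much of its ratio. Reads starting 1 base earlier, with U, numbered 274 and 234 with G (ratio 1.35) and 142 and 126 with C (ratio 1.30). Reads starting 2 bases earlier, again with A, had ratios of 0.195 with G and 0.215 with C, and those starting 3 bases earlier, with U, had 1.30 and 1.17. Leaving the sum with the member aside, the A-starting forms had ratios of 0.195 to 0.378 and the U-starting forms of 1.17 to 1.35.

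The 25 longer members without a place are described by group. The largest group had 10 members of 25 to 32 nt from 4 starts, all beginning with U, with 117 KO-named and 2155 het-named reads. All reads with these starts, the members' own included, numbered 232 and 3622, a ratio of 0.0739 (interval 0.0645 to 0.0844). A group of 4 members of 28 to 30 nt from 1 start, also with U, had 42 and 792 reads. A pair of 30 and 32 nt that ended at the same base and began with A and G had 2 KO-named and 1715 het-named reads. All reads with its starts, the members' own included, numbered 3 and 1883, a ratio of 0.00184 (interval 0.000379 to 0.00538). A further group of 4 members of 19 to 28 nt, all beginning with C and all with the same 3′ end, had 0 KO-named and 807 het-named reads. Its starts had 0 and 912 reads at any length, which at the same floor allows a ratio of up to 0.00380. These last 2 groups and the first Gm18009 member held all 6 members with 0 KO-named reads.

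One-base variants of the members were then sought in the KO-named table. A sequence of equal length with 1 substitution was present for 200 of 272 members (73.5%), against 99.2% of all 68112 sequences. It had at least 10 reads for 8 members (2.94%), against 35.9% of all. It was more abundant than the member itself in the KO-named table for 5 members (1.84%), against 7.87% of all. In their own table every member had such a variant. Members were chosen for a low KO-named level, which also lowers the number of their variants there, so nothing is read from these shares. The gap was present in their own table too, where a variant was more abundant than the sequence itself for 1.10% of members and 7.80% of all sequences. It went with length: in the KO-named table the variant exceeded the member for 1 of 237 short members (0.422%), against 5.03% of all short sequences, and for 4 of 35 longer ones (11.4%, interval 3.20 to 26.7), against 8.17% of all longer sequences.

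Apart from the 2 Gm49794 members and the U2 member, the variant exceeded the member in 2 sequences without a place. An 18-nt member with 20 KO-named and 245 het-named reads had an A1T variant with 73 KO-named and 506 het-named reads. A 30-nt member with 8 and 150 reads had an A30T variant with 16 and 254 reads. In both of them the variant was itself lower in the KO-named table. The A30T variant is also a member, so the rule required this of it. The member with the most reads, of 20 nt, had a G15T variant with 38 KO-named and 73 het-named reads, far below its own 834 and 10126. The 30-nt Gm49794 pair was the only one of these 6 in which the variant was higher in the KO-named table.

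In the opposite direction no sequence met the rule. The nearest was a 30-nt sequence beginning with U, with 117 KO-named and 21 het-named reads, so that the het-named level was 15.6% of the KO-named one. The next was a 29-nt sequence with 133 and 28 reads (18.2%). With the limit at 30%, 24 sequences were high in the KO-named table, against 2564 in the het-named table. Of the 24, 19 began with U, 17 were of 29 to 32 nt and 5 of 22 nt. For 8 of them a sequence 1 substitution away was more abundant in the KO-named table. They were described after their values were seen. A 31-nt sequence of 4933404O12Rik and a 27-nt sequence of Abl2 were the only exact matches among them.

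Of the 22-nt sequences in that set, 4 were variants of mature miRNAs near the 3′ end. They are shown with the RefSeq sequence on GRCm38.p6, whose seed (bases 2 to 8) is in capitals, while in the variants the capital is the changed base. The miR-22 gene lies at chr11:75463772-75463793 on the plus strand, and the miR-16 copy shown at chr3:69009918-69009939 on the plus strand.
miR-22-3p: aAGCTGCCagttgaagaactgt
miR-22-3p G21C: aagctgccagttgaagaactCt
miR-22-3p G21T: aagctgccagttgaagaactTt
miR-22-3p G21A: aagctgccagttgaagaactAt
miR-16-5p: tAGCAGCAcgtaaatattggcg
miR-16-5p G22T: tagcagcacgtaaatattggcT

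miR-22-3p itself had 479958 KO-named and 352957 het-named reads, a ratio of 1.57. Its G21C variant had 108 and 30 reads (ratio 4.16, interval 2.75 to 6.45), its G21T variant 304 and 89 (ratio 3.94) and its G21A variant 140 and 45 (ratio 3.59). All 3 substitutions fell on the same base, and their ratios are high because the limit of 30% chose them. Of all 44 variants of miR-22-3p with 1 substitution and at least 100 KO-named reads, 23 had a ratio above that of the miRNA, with a median of 1.58 and a range of 0.812 to 4.16. miR-16-5p had 113103 KO-named and 94990 het-named reads (ratio 1.37), and its G22T variant had 128 and 43 (ratio 3.44, interval 2.41 to 4.97). The seed, which sets the targets of a miRNA, was the same in every form. These variants were a very small part of each miRNA's reads in both tables.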

How the data were processed

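Small RNAs of 15 to 40 nt were gel purified from testis total RNA and made into libraries with the TruSeq Small RNA kit, per the labels' protocols. Each deposited table lists distinct read sequences with their raw count of reads, unscaled, as the values show. How the authors trimmed, filtered or aligned the reads is not given in the sources used here. Reads with an undetermined base (KO-named 0.188%, het-named 0.190%) were left out of the members but kept in the totals. RPM is reads per 1000000 reads of the table. Depth was 54384974 KO-named and 62773871 het-named reads, so 3 reads, the floor for a count of 0, are 0.0552 and 0.0478 RPM.

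Sequences were matched on both strands to GENCODE M21 transcripts with bwa 0.7.19, allowing up to 2 mismatches, and each hit was checked letter by letter. Mature miRNAs, and the name Stambp-ps1 for Gm18009, came from RefSeq. Shares carry exact Clopper-Pearson intervals and ratios conditional binomial intervals. Values were computed with pandas 2.3.3, numpy 2.4.6 and scipy 1.17.1 (Python 3.11.15), and the rule was tested on simulated tables. No test between tables was run, since each has 1 library.

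Singly named members were the 10 with most reads that match exactly, the 3 with most reads of each source with at least 5 members, the 6 with the most abundant 1-substitution variant in the KO-named table, and those nearest the limit. The members and lists were chosen with earlier results of these data known. Other minimum counts, limits, scalings, mismatches and shared-end lengths were tried.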

Additional observations from a re-analysis of the deposited data

How the results depend on the processing

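The number of het-named members depended on the rule: 463 with a minimum of 50 reads, 141 with 200 reads, 49 with a limit of 5% and 959 with a limit of 20%. Scaled to reads of 24 to 32 nt there were 311, and 332 when scaled to the median ratio of sequences abundant in both tables, and each of these sets held all 272. KO-named members numbered 1 with a minimum of 50 reads (a 25-nt sequence with 50 KO-named and 3 het-named reads), 2 with a limit of 20%, and 0 in the other settings. Sequences of 18 to 21 nt made up 67.3% of members with a limit of 5% and 92.2% with 20%. Exact matches made up 28.6% with a limit of 5%, and matches made up 25% with up to 1 mismatch and 67.6% with up to 2 mismatches. The share of members with a 1-substitution variant in the KO-named table was 59.6% with a minimum of 50 reads, 85.1% with 200 reads, 55.1% with a limit of 5%, 85.4% with 20%, 2.94% where the variant needed 10 reads and 97.4% where 1 base added or missing also counted. The share beginning with U stayed within its interval in every setting tried. The median ratio of sums over the first 18 bases was 0.299. It stayed within its quartiles in the other settings, among them the last 18 bases (0.356), except that it was 0.414 without the members' own reads. These last 2 settings were chosen after seeing the data. No paired analysis was possible because each table is 1 library. A member near 100 het-named reads needs 8 or fewer KO-named reads, so the counting interval of its ratio is wide.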
